A study of Mus musculus with 13 samples.

Results

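The 10 genes described here, Actb, Actg1, Gapdh, Eef1a1, Eef2, Tubb5, Tuba1a, Tuba1b, Hspa8 and Hsp90ab1, are widely used as examples of strongly transcribed housekeeping genes. They are given by name, and the rule uses no measured value, although earlier results of these data were known when they were chosen. They are 10 of the 22367 protein-coding genes of the mouse annotation used (GENCODE vM1, build mm9). Every peak that overlapped the bounds of such a gene, extended by 1 kb on each side, was assigned to it. No RNA level was read here, so the description as strongly transcribed rests on general knowledge of these genes.

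R-loops form when a nascent RNA pairs with its template strand and leaves the other DNA strand single. They are known to gather over the starts and the 3′ ends of active genes, and for that reason strongly transcribed genes commonly serve as positive control loci. DRIP-seq pulls down RNA-DNA hybrids with the S9.6 antibody from DNA that was cut with restriction enzymes. RNase H destroys the RNA of such hybrids, so a signal that is lost upon RNase H digestion before the pulldown depends on a hybrid. The method used here carries no strand, and a peak cannot be given to a gene rather than to an overlapping or antisense transcript.

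The libraries came from N2a cells, a mouse neuroblastoma line. Wild-type cells given a scramble siRNA (siScramble), cells depleted of the putative helicase DDX1 (siDDX1) and cells depleted of the RNA exosome subunit EXOSC3 (siEXOSC3) gave 3 libraries each, all from DNA that saw no RNase H before the pulldown and called untreated below. Each group also had 1 library whose DNA was digested with RNase H first. All groups share the parental line and the transfection, and each depletion was transient and rests on siRNA in 1 cell line. In 12 of 12 lists the names of the peaks carried another treatment than the title of the sample, with siDDX1 in the lists titled siScramble, siEXOSC3 in those titled siDDX1 and siScramble in those titled siEXOSC3. Groups are therefore given as labelled by title and every direction between groups depends on that choice. The untreated lists held 23882 to 42571 peaks and the RNase H lists 3811 to 8034. The genome background, which is the number of fragments that the peak caller expected at an average base and follows the sequencing depth, was 0.544 to 1.29 fragments in untreated libraries and 1.13 to 1.59 in RNase H libraries. The RNase H library of each group was thus not shallower than the untreated ones of the same group, except that of siDDX1, whose untreated replicate 1 was at 1.29 against 1.17.

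Peaks at these genes often began or ended on restriction cuts, and the sequences around the 8 cuts that bounded a peak in 8 or 9 untreated libraries are shown first, with the XbaI cut inside Actb, because they bound the measured intervals. Of the 334 peak edges at the 10 genes in untreated libraries, 171 (51.2%) lay exactly on the cut of BsrGI, EcoRI, HindIII, SspI or XbaI, against 31.8% of the edges of all untreated peaks. A total of 27 edges at these genes recurred at the same base in 3 or more libraries, and 27 of them lay on a cut. Each sequence below is read along the strand of its gene from the mm9 genome, with the recognition site in capitals.
Actb, 5′ edge at −246 from the start, BsrGI, 9 libraries, chr5:143668663-143668692 (minus strand): ggaggctattccTGTACAtctgggcctacg
Actb, 3′ edge of the first peak, 2272 bases after the start, XbaI, 6 libraries, chr5:143666148-143666177 (minus strand): gtgctatgttgcTCTAGActtcgagcagga
Actb, 5′ edge of the second peak, 3226 bases after the start, BsrGI, 8 libraries, chr5:143665191-143665220 (minus strand): ggctgaggacttTGTACAttgttttgtttt
Actg1, 5′ edge at −918 from the start, HindIII, 9 libraries, chr11:120210758-120210787 (minus strand): gaaccattccagAAGCTTacaaataaaacc
Actg1, 3′ edge of the first peak, 2152 bases after the start, XbaI, 9 libraries, chr11:120207691-120207720 (minus strand): accgcaaatgctTCTAGAtggactgagcag
Eef1a1, 5′ edge at −506 from the start, XbaI, 8 libraries, chr9:78330021-78330050 (minus strand): aagcccttgggtTCTAGAgccgggaagggt
Tuba1b, 5′ edge at −1651 from the start, SspI, 9 libraries, chr15:98766633-98766662 (minus strand): agagcaaattggAATATTtgagacaaaaga
Hspa8, 5′ edge at −1210 from the start, BsrGI, 9 libraries, chr9:40607844-40607873 (plus strand): gagttacatcctTGTACAtcctcccatgaa
Hsp90ab1, 3′ edge 7105 bases after the start, HindIII, 8 libraries, chr17:45703102-45703131 (minus strand): gccttctttcccAAGCTTtagctcatttta
Of these sites, 5 bounded a peak in 9 of 9 untreated libraries. The other edges on cuts recurred in fewer libraries, such as the BsrGI cut past Eef2 in 7.

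All 10 genes carried peaks in every untreated library and in no RNase H library. A peak in 9 of 9 untreated libraries was found at 26.2% of all protein-coding genes and at 27.5% of the 5166 genes whose length falls between that of the shortest and the longest of the 10 (2853 to 10703 bases). At least 1 of the 3 RNase H libraries had a peak at 13.5% of all genes. Together the 10 genes held 167 of the 298649 untreated peaks and 0 of the 15763 RNase H peaks. Their peaks were 3071 bases wide in the median, against 530 bases for all untreated peaks.

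The cytoplasmic actins, Actb and Actg1, encode the filament proteins of the cell cortex and stress fibres. Actb (chr5:143664794-143668433, minus strand) was covered over 76.0% ± 3.46 of its length (SD, n = 9), and Actg1 (chr11:120207004-120209856, minus strand) over 80.0% ± 5.26 (SD, n = 9). A first peak ran from the cut before the start to the XbaI cut shown above in 6 of 9 libraries at Actb and in 8 of 9 at Actg1, where siDDX1 replicate 2 held 2 shorter peaks instead. At Actb the first peak of each siScramble library ran past that cut, to 2383, 2344 and 2650 bases after the start. A further peak began in the last exon and ran past the 3′ end at both genes. Between them lay a stretch that held no peak in any of the 9 untreated libraries, over 423 bases of Actb and 461 bases of Actg1. The peaks of Actb reached 1584 to 4923 bases past the 3′ end.

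Gapdh, the glycolytic enzyme glyceraldehyde-3-phosphate dehydrogenase (chr6:125111871-125116485, minus strand), was covered over 83.9% ± 9.38 (SD, n = 9). Coverage was lowest in its middle. Of the middle of 3 equal parts of the main transcript, 52.4% ± 24.3 lay under a peak (SD, n = 9), and the smallest restriction fragments of the gene lie there. The fragment of 2120 bases over the start and the fragment of 1919 bases over the 3′ end were covered over at least 50% in 9 of 9 libraries.

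The elongation factors differed in how far the peaks followed the gene. Eef2, which moves the ribosome along the mRNA (chr10:80639376-80645252, plus strand), was covered over 100.0% of its length in 9 of 9 libraries, across 8 restriction fragments. Eef1a1, which delivers aminoacyl-tRNA to the ribosome (chr9:78326256-78336958, minus strand), was covered over 30.6% ± 3.67 (SD, n = 9) of the annotated gene. Those bounds include a long upstream transcript, and 83.7% ± 11.5 (SD, n = 9) of the main transcript, which starts at base 78329531, was covered. The 5′ edge lay at −506 from that start in 8 of 9 libraries, on an XbaI cut.

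The tubulins form the microtubule lattice. Tubb5 (chr17:35970871-35975251, minus strand) was covered over 91.3% ± 5.97, Tuba1a (chr15:98780272-98783982, minus strand) over 91.6% ± 3.61 and Tuba1b (chr15:98761856-98764996, minus strand) over 75.1% ± 9.15 (SD, n = 9 each). Tubb5 was the exception at the start. Its upstream kb was covered over 0.0 to 38.5% (mean 12.7%, n = 9), and in 5 of 9 libraries a peak opened at an EcoRI cut 351 bases inside the transcript. At Tuba1b, by contrast, the upstream kb was covered over 100.0% in each library, and 340 bases near the 3′ end were covered in none.

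The chaperones were covered almost from end to end. Hspa8, the constitutive heat shock protein of the cytosol (chr9:40609067-40613283, plus strand), was covered over 98.9% ± 3.34 (SD, n = 9). Hsp90ab1, the constitutive cytosolic HSP90 (chr17:45704724-45710220, minus strand), was covered over 98.4% ± 2.52 (SD, n = 9). At Hspa8 the peaks stopped 501 to 584 bases past the 3′ end, and no library ended on a cut there. Further peaks outside the 1 kb window covered 86.3% ± 3.93 of the second kb past the end (SD, n = 9). At Hsp90ab1 the 3′ edge lay on a HindIII cut in 8 of 9 libraries, 1609 bases past the end.

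**Figure D1:**
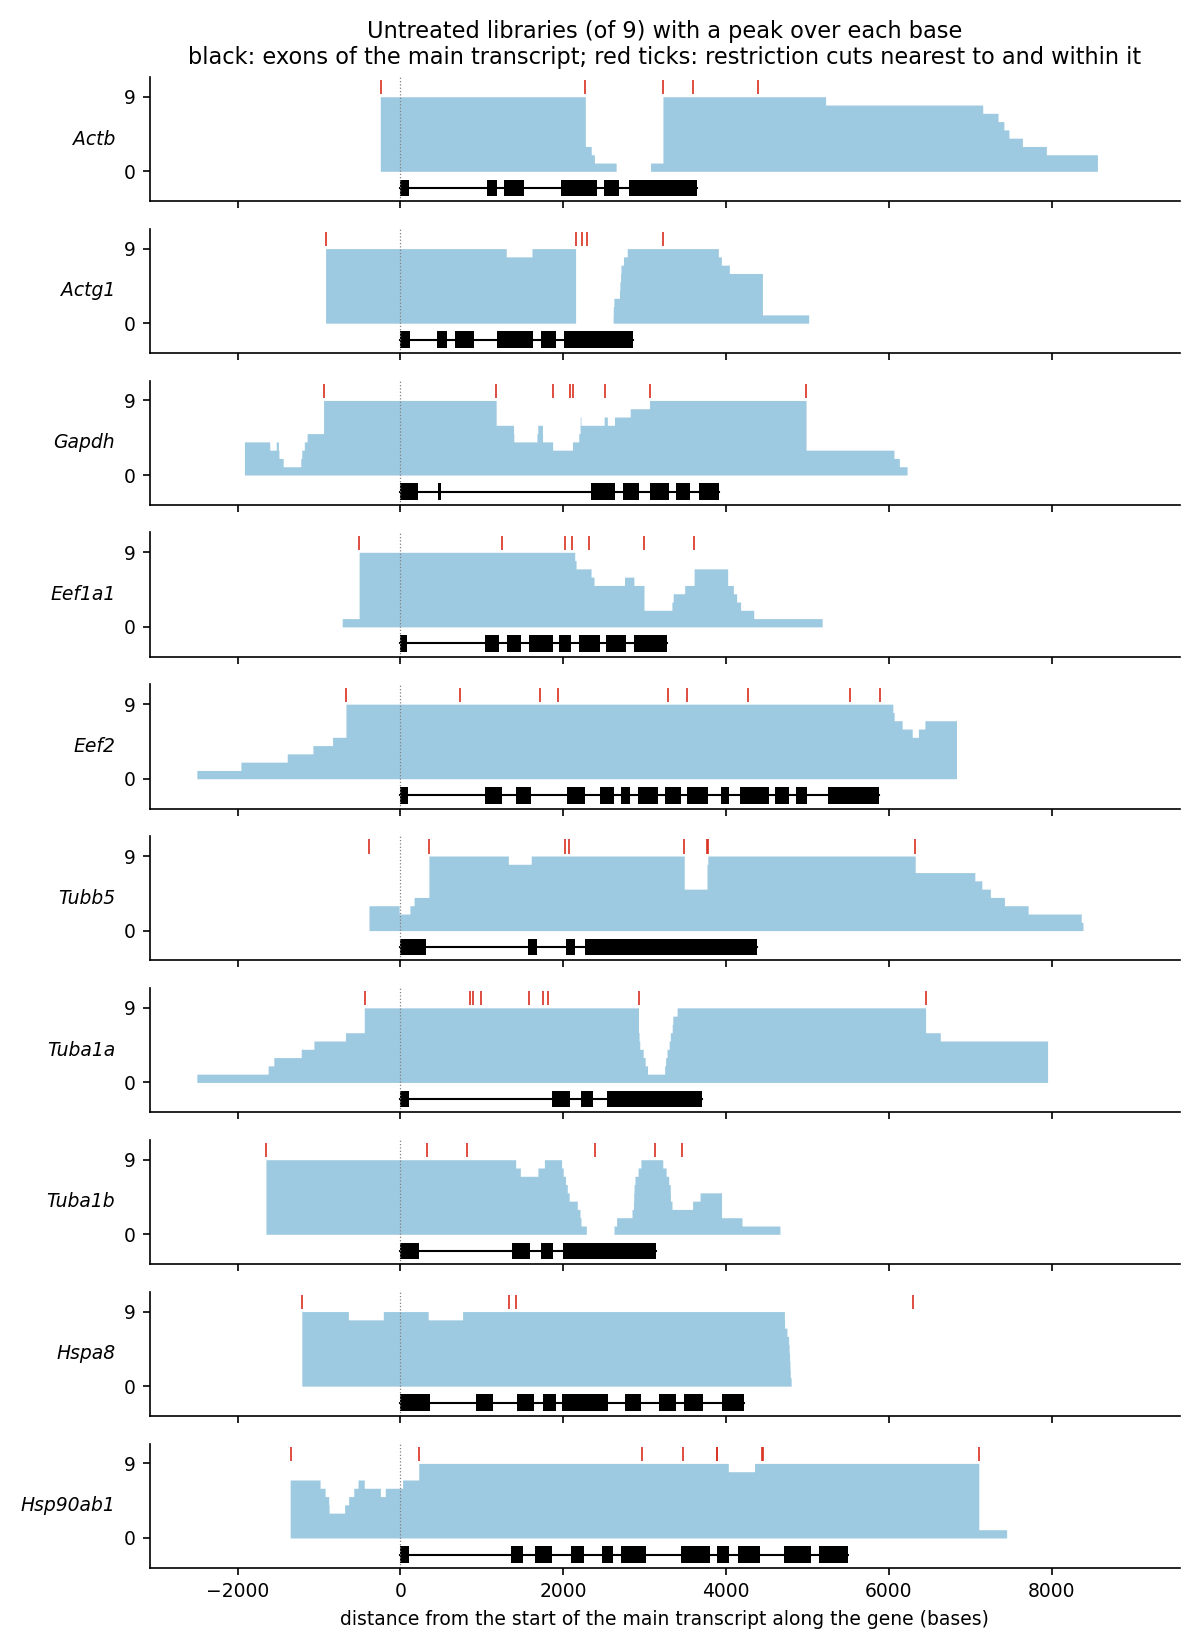
Number of untreated libraries (0 to 9, vertical axis) with a peak over each base, against the distance from the start of the main transcript in bases, for the 10 genes, counting peaks that overlap the gene or its 1 kb flanks. Black boxes are exons and red ticks restriction cuts. The blue area drops at cuts at Actb and Actg1, where 423 and 461 bases near the 3′ end lie under no peak, and fills the whole transcript at Eef2.

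Coverage ran over the start, the body and the 3′ end of these genes. In the first, middle and last of 3 equal parts of the main transcript, the mean over the 10 genes was 97.4% ± 1.47, 92.8% ± 4.42 and 72.6% ± 6.04 (SD over 9 libraries). It was 69.4% ± 7.30 in the kb before the start and 83.3% ± 5.15 in the first kb past the end. The level fell to 61.9% ± 7.74 in the second kb and 42.6% ± 7.07 in the third kb past the end (SD over 9 libraries). Over the 5859 genes with a peak in 9 of 9 libraries the same parts ran at 25.5%, 23.9% and 31.9%, with 36.3% before the start and 32.9% in the first kb past the end. These genes were not matched in length to the 10. The last part was covered least at Tuba1b (34.9%), Actb (37.6%), Actg1 (43.8%) and Eef1a1 (51.7%), while the last part of Eef2 was covered over 100.0%.

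**Figure D2:**
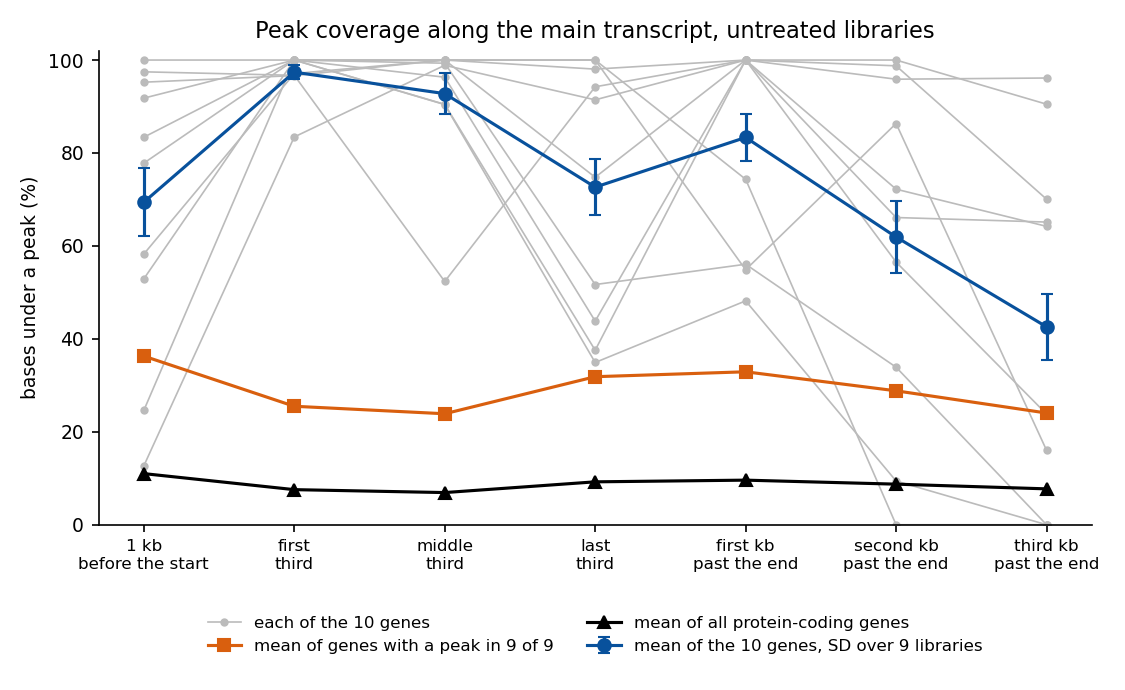
Bases under a peak in percent (vertical axis) in 7 parts along the main transcript, for each of the 10 genes (grey), their mean with SD over 9 untreated libraries (blue), genes with a peak in 9 of 9 libraries (orange) and all protein-coding genes (black). The blue line peaks at 97.4% in the first part of the transcript and stays above the orange line throughout.

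The summit of the strongest peak did not sit at 1 common place. Of the 90 strongest peaks (10 genes in 9 libraries), 32 had their summit in an intron, 26 in coding sequence, 2 in untranslated exon, 19 upstream of the start and 11 downstream of the end. At Hsp90ab1 the summit lay 228 to 411 bases after the start, in intron 1, in 9 of 9 libraries. At Actb it lay 2110 to 2270 bases after the start, in exon 4, in 9 of 9, next to the XbaI cut. At Eef1a1 it lay upstream of the start in 8 of 9. At Tuba1a it lay beyond the 3′ end in 6 of 9, where the next protein-coding gene, Tuba1b, begins 15275 bases away. Peaks also reached the neighbour at Gapdh, Eef2, Tubb5 and Hsp90ab1, whose next genes on the opposite strand lie 71 (Iffo1), 97 (4930442H23Rik), 1134 (Flot1) and 104 (Slc35b2) bases past the end, and signal there cannot be assigned to either gene. At Actg1 the protein-coding gene 0610009L18Rik lies on the opposite strand within 1 kb upstream. Peaks began at −918 there in 9 of 9 libraries, so signal before the start of Actg1 cannot be assigned to it alone. Small RNA genes lie inside or overlap Hspa8 (Snord14c, Snord14d and Snord14e) and Eef2 (Snord37). MicroRNA genes do so at Actg1 (AL669855.1) and Eef1a1 (mmu-mir-703).

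The height of the signal was read as whole fragments at the summit, recovered from the fold and the p-value of each peak. At the 10 genes the summits held 21 to 133 fragments in untreated libraries. Divided by the genome background of the library, the means ran from 59.4 ± 27.7 at Actg1 to 137 ± 37.1 at Eef1a1 (SD, n = 9 each). These means stood at the 97.3 to 99.8 percentile of all 22367 protein-coding genes, of which 11211 had no peak in any untreated library. Among the 5166 genes in the same range of length they stood at the 95.5 to 99.7 percentile. Among the peaks of its own library, the strongest peak of each gene stood by fold at the 95.5 to 99.96 percentile, and its fold ran from 11.9 to 74.0.

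Eef1a1 and Hsp90ab1 formed the top of the order. At Eef1a1 the siScramble libraries gave 118, 176 and 171 times the genome background, the siDDX1 libraries 99.1, 104 and 130, and the siEXOSC3 libraries 112, 121 and 204. At Hsp90ab1 the values were 105, 161 and 115 (siScramble), 103, 97.3 and 132 (siDDX1) and 121, 118 and 206 (siEXOSC3). Both genes were the highest pair in 9 of 9 libraries, with Eef1a1 first in 5 and Hsp90ab1 first in 4, and their difference of 8.41 ± 19.6 (SD, n = 9) did not exceed its spread. Hsp90ab1 stood above Actb in 9 of 9 libraries, by 44.5 ± 19.1 (SD, n = 9). Below them came Actb (84.2 ± 28.9), Gapdh (77.4 ± 32.3), Eef2 (75.6 ± 18.7), Tuba1a (75.5 ± 17.8), Hspa8 (71.2 ± 25.2), Tuba1b (62.6 ± 18.05), Tubb5 (60.8 ± 16.4) and Actg1 (59.4 ± 27.7), each as mean and SD over 9 libraries. No neighbours among these 8 differed by more than the SD of their difference. The library labelled siEXOSC3 replicate 3 stood apart, with a median over the 10 genes of 125 times the background against 48.7 to 81.9 in the other 8. Genes with a peak were also higher there, at 28.9 in the median against 14.7 to 22.1, and the ratio of the 10 genes to them was 4.31 in that library and 2.77 to 4.13 in the others.

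**Figure D3:**
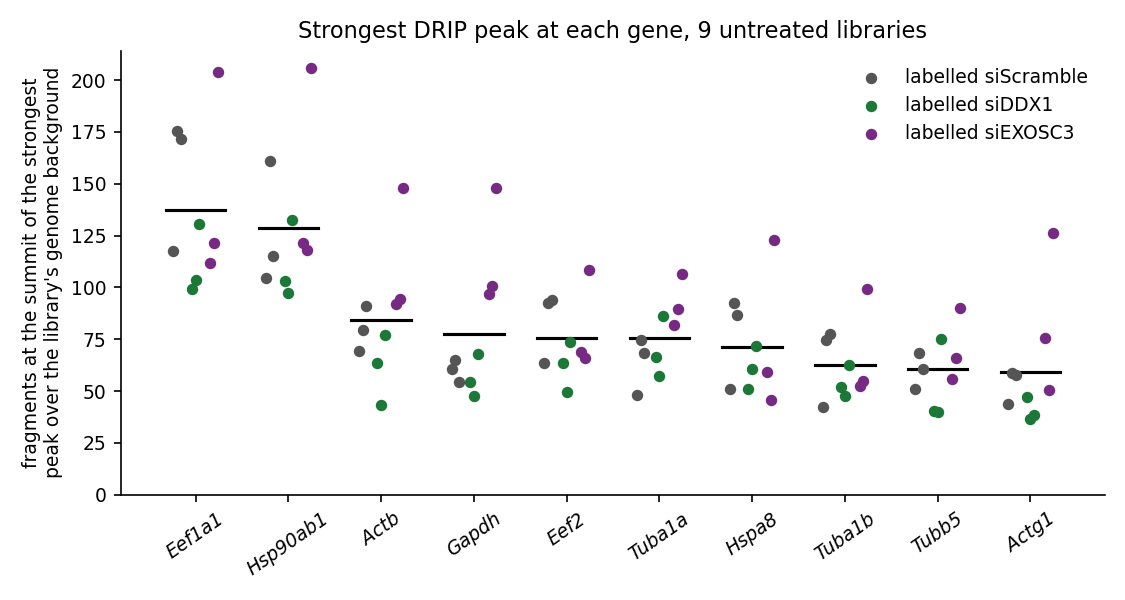
Fragments at the summit of the strongest peak, divided by the genome background of the library (vertical axis, no unit), for the 10 genes in order of their mean. Each point is 1 of 9 untreated libraries, coloured by labelled group, and the black line is the mean. Eef1a1 and Hsp90ab1 lie above the rest, and the highest point of each gene is siEXOSC3 replicate 3.

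None of the 10 genes kept a peak after RNase H. The covered bases of the gene and its flanks fell from 4012 to 0 at Actb, from 7454 to 0 at Eef2 and from 3831 to 0 at Eef1a1, and the other 7 losses lay between those of Eef1a1 and Eef2 (means of the 3 group means). The exact permutation test, two-sided, which moved the RNase H label over the 4 libraries of each group, gave p = 0.0156 for each of the 10 genes, the smallest value that its 64 assignments allow. Adjusted by the Benjamini-Hochberg method over 12116 genes, this was an adjusted p of 0.0388. A loss was called at 38.2% of the genes tested. With 1 library left out, the adjusted p ran from 0.0458 to 0.0576 and passed the threshold of 0.05 without siScramble replicate 1, siDDX1 replicate 1 or siDDX1 replicate 2, and missed it without any of the other 6 libraries (siScramble 2 and 3, siDDX1 3, siEXOSC3 1, 2 and 3). Leaving 1 out raises the smallest possible p to 0.0208, and a loss was then called at 0.0 to 43.4% of all genes tested.

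The absence of a peak after RNase H is a bound and not a zero. In the RNase H libraries a summit of 8 or 9 fragments was enough for a call where the local background equalled that of the genome, and the lowest fold called there was 3.85 to 4.23. The local background was that of the genome at 53.3% of the 90 strongest peaks of the 10 genes, and at most 3.04 times it. Each of the 90 folds measured without RNase H, at 11.9 or more, lay above that limit. The RNase H peak nearest to any of the 10 genes lay 2879 bases from Actg1, in the library labelled siDDX1, with a fold of 4.08. The other 9 genes had none within 5 kb.

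Near-identical copies of these genes elsewhere in the genome mostly carried no peak. Such copies share exon sequence with their parent, so a read from an exon can be placed at the wrong site. A BLASTN 2.17.0 search of the 10 spliced transcripts found 199 stretches of at least 500 aligned bases at 90% identity or more outside the genes themselves, 129 of them copies of Gapdh. Stretches were counted for each transcript on its own. One that matched both Tuba1a and Tuba1b, such as that in Tuba1c, is therefore counted for each. A peak overlapped 14 of the 199 in at least 1 untreated library and 5 in 9 of 9. Of the 83 stretches at 95% identity or more, 2 had a peak in 9 of 9 libraries, and these were Tuba1a and Tuba1b, each found as the copy of the other at 98.3% identity. A stretch of Tuba1c was found as a copy of both, at 98.2% identity to Tuba1a and 99.1% to Tuba1b. A peak overlapped that stretch in 8 of 9 libraries and the extended gene Tuba1c in 9 of 9. A stretch of Sfi1 at 93.2% identity to Eef2 had a peak in 9 untreated and 3 RNase H libraries. The values of these tubulin genes are uncertain to the extent that reads from their exons were exchanged. Tubb5 had no such copy, Hsp90ab1 had 2 and Hspa8 had 9, and none of these copies had a peak. Whether reads were exchanged was not tested.

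Other members of the same families, from lists of related genes, ran from high coverage to none. The muscle actins Acta1, Acta2, Actc1 and Actg2 had no untreated peak (0 of 4 in 9 of 9 libraries, and 4 of 4 with none), while RNase H libraries had a peak at Acta2 (2 of 3) and Actg2 (1 of 3). Among 10 further tubulins, 5 had a peak in 9 of 9. Tubb2c was covered over 83.8% ± 10.8, Tuba1c over 61.5% ± 16.5 and the neuronal Tubb3 over 37.8% ± 13.1 (SD, n = 9 each), and Tubb1 and Tubb4 had none. Of 12 further heat shock genes 8 had a peak in 9 of 9. The endoplasmic reticulum chaperone Hspa5 was covered over 90.9% ± 12.3 and stood at 118 times the background, whereas the stress-inducible Hspa1a and Hspa1b had no peak in any library. Of 5 further elongation factor genes 4 had one in 9 of 9, led by Eef1g (78.2% ± 7.78, SD, n = 9).

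Metabolic and reference genes also spanned a wide range. Of 11 further glycolysis genes 10 had a peak in 9 of 9, with Tpi1 at 99.7% ± 0.817, Aldoa at 86.9% ± 9.71 and Pgam1 at 73.8% ± 10.4 (SD, n = 9 each). The exception was Gapdhs, the sperm form of Gapdh, with a peak in 4 of 9 and 1.51% ± 2.77 of its length (SD, n = 9). Of 12 other reference genes 8 had a peak in 9 of 9. Rplp0 (87.2%) and Ppia (67.0%) led them by coverage, and B2m (2.41%) and Hprt (2.43%) were at the foot. Of 17 genes restricted to other tissues, such as Alb of liver and Myh7 of heart, none had a peak in 9 of 9, and 15 had none in any. The other 2, Sftpc and Tnnt2, had a peak in 2 libraries each. The median coverage was 87.6% over the 10 genes, 54.9% over the glycolysis list, 28.5% over the tubulins, 18.2% over the heat shock genes, 54.7% over the elongation factors, 19.7% over the other reference genes and 0.0% over the muscle actins, the tissue-restricted genes and all protein-coding genes. The same covered length is a smaller share of a longer gene, and the lists were not matched in length to the 10 genes (2853 to 10703 bases). Over the 5166 genes in that range of length the median was also 0.0%. The test of RNase H passed at 5 of the tubulins, 8 of the heat shock genes, 4 of the elongation factors, 10 of the glycolysis genes, 8 of the other reference genes and none of the muscle actins or tissue-restricted genes.

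**Figure D4:**
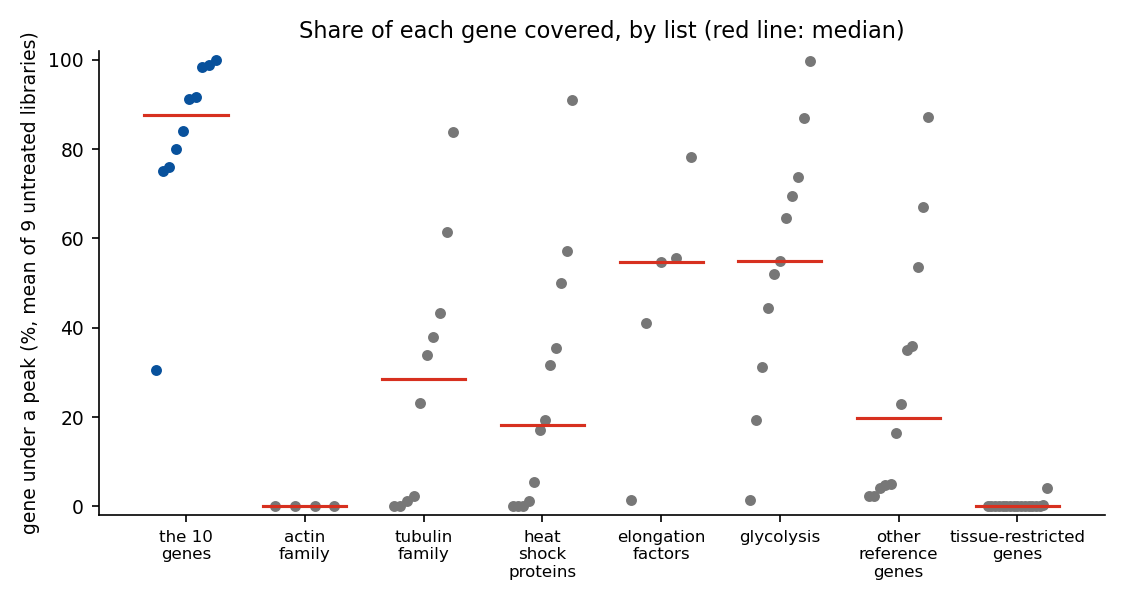
Share of each gene under a peak in percent (vertical axis, mean of 9 untreated libraries) for the 10 genes (blue) and 7 lists of related or contrasting genes (grey), with each list's median in red. The muscle actins and nearly all tissue-restricted genes lie at 0, and the low blue point is Eef1a1, whose annotated bounds include a long upstream transcript.

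No difference between the groups labelled siScramble, siDDX1 and siEXOSC3 was called at the 10 genes. None passed the exact permutation test of covered bases across the 3 groups (280 splits, F statistic), with an adjusted p of 1.0 at all 10. The smallest p that these splits allow is 0.00357, so after adjustment a gene can pass only if many genes reach such low values. The lack of a call therefore does not show that the groups were alike. Over all 11156 genes tested 0.0% passed after adjustment, and 311 (2.79%) had an unadjusted p below 0.05. Of the 10 genes only Tuba1b was among these, with an exact p of 0.0179. The percentile of the strongest peak by fold within its library likewise passed nowhere (0.0% of genes, adjusted p of 0.861 to 1.0 at the 10 genes). An unadjusted p below 0.05 was found at 563 genes (5.05%), and at 1 of the 10, Eef2, with an exact p of 0.0143. That count was 4 (Actb, Actg1, Gapdh and Eef2) without siDDX1 replicate 1, where 10.2% of all genes had such a p. It was 2 (Gapdh and Eef2) without siDDX1 replicate 2 (4.54% of all genes) and 1 (Gapdh) without siScramble replicate 1 (5.49%). It was 0 without siScramble replicate 2 or any 1 of siEXOSC3 replicates 1, 2 and 3 (3.87 to 4.89%). With 3 libraries against 3 the smallest p of a pair of groups is 0.1.

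Tuba1b was the gene whose covered length lay farthest apart between groups. The siScramble libraries had 4256, 4769 and 4540 covered bases, the siDDX1 libraries 4136, 3387 and 3436, and the siEXOSC3 libraries 3414, 3131 and 3500. All siScramble libraries lay above all others. The mean difference from siScramble was −869 bases in siDDX1 and −1173 bases in siEXOSC3 (exact permutation p = 0.1 for each pair, the smallest possible). With siScramble replicate 1, 2 or 3 left out, or with the gene bounds taken without extension, its p no longer lay under 0.05. Actb also lay lower in siDDX1 than in siScramble without overlap (mean difference −187 bases), with 3933 bases in each of the 3 siDDX1 libraries and 4044, 4005 and 4311 in siScramble. Among all genes tested 1.86% lay lower in siDDX1 than in siScramble without overlap, against 2 of the 10 (Actb and Tuba1b), and 0.816% lay higher, against 0 of the 10.

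At Hsp90ab1 the siScramble libraries had 6674, 6285 and 7016 covered bases and the siEXOSC3 libraries 7497, 7239 and 7257. This was the 1 gene of the 10 that lay higher in siEXOSC3 than in siScramble without overlap, as 6.41% of all genes did. Tubb5 and Tuba1b lay lower, as 3.55% did, and the Tubb5 libraries held 5487, 5212 and 5766 bases in siScramble and 5030, 4974 and 4751 in siEXOSC3. Hspa8 lay higher in siEXOSC3 (5776, 5801 and 5781) than in siDDX1 (5749, 5291 and 5770), as 5.06% of genes did, and none of the 10 lay lower, as 2.37% did.

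In fold percentile, Eef2 stood at 99.4, 99.6 and 99.3 in siScramble, 99.0, 97.4 and 98.7 in siDDX1 and 99.1, 99.4 and 99.4 in siEXOSC3. It was the only 1 of the 10 below siScramble in siDDX1 without overlap (3.61% of all genes), and none was above it (2.64%). Gapdh stood at 99.3, 99.0 and 98.7 in siScramble, 99.5, 98.9 and 99.3 in siDDX1 and 99.7, 99.8 and 99.8 in siEXOSC3. The siEXOSC3 libraries lay above both other groups, by 0.770 percentile points over siScramble and 0.557 over siDDX1. Gapdh alone was above siScramble in siEXOSC3 (8.1% of all genes), Gapdh and Eef2 were above siDDX1 (8.31%), and none of the 10 was below siScramble (3.7%) or siDDX1 (3.68%) in siEXOSC3. These comparisons share their libraries, so they are not independent of each other.

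**Figure D5:**
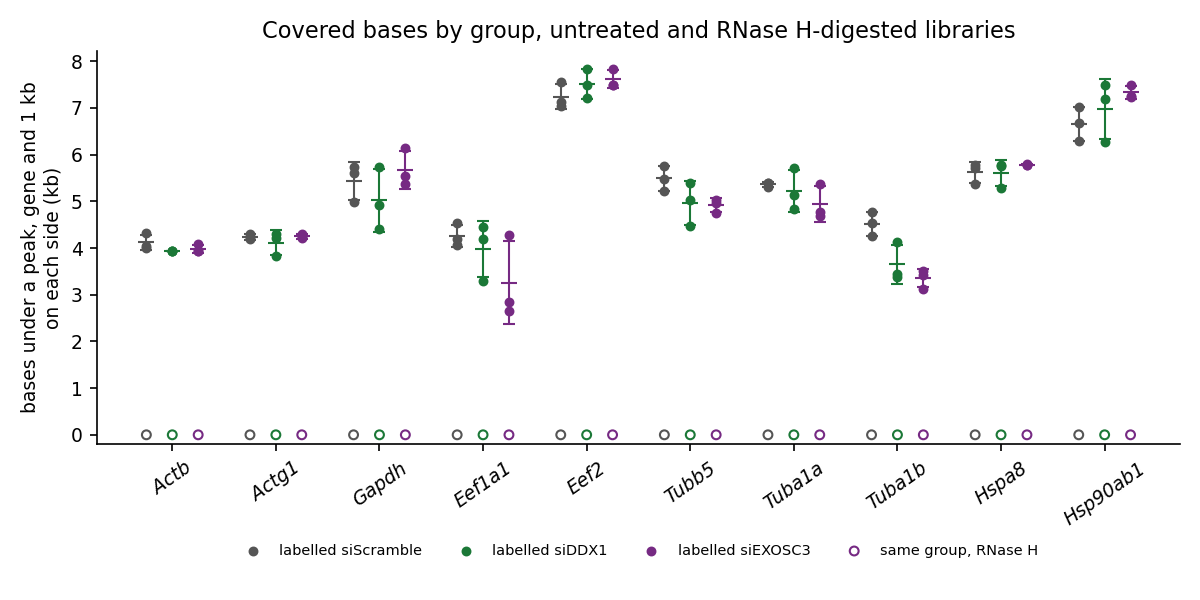
Bases under a peak in kb (vertical axis) over each gene and 1 kb on each side. Filled points are the 3 untreated libraries of each labelled group with their mean and SD, and open circles the 1 RNase H library of the group. The open circles all lie at 0, and of the groups only those of Tuba1b separate siScramble from both others.

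The median share covered over the 10 genes was 87.7% ± 2.63 in siScramble, 86.5% ± 0.618 in siEXOSC3 and 85.7% ± 7.07 in siDDX1 (mean and SD of 3 libraries each). Over the libraries it ran from 78.4% in siDDX1 replicate 2 to 92.5% in siDDX1 replicate 1, so the widest spread lay within a group.

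The fold percentile over the 9 untreated libraries followed the median of the 10 genes most closely, among genes in no list, at Lpgat1 (Pearson r = 0.971), Lcorl (r = 0.971) and Nrf1 (r = 0.970). The points are the same 9 libraries for every gene, which differ in depth and number of peaks, and r is given as a description over 9 libraries. The median of the 10 genes ran only from 98.6 in siDDX1 replicate 2 to 99.5 in siEXOSC3 replicate 3. Lpgat1, Lcorl and Nrf1 were picked for their high r, so its height says little by itself. These genes were less high, with percentiles from 42.8 to 91.0 at Lpgat1 and 10.9 to 91.8 at Nrf1.

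The sequence of the 10 genes was rich in G and C. In the first kb of the main transcript they had a median GC content of 63.4%, against 58.4% in genes with a peak in 9 of 9 libraries and 53.2% in all protein-coding genes. GC skew, the excess of G over C on the coding strand divided by their sum, was 0.0753 in the median, against 0.0588 and 0.0392. Over the whole transcript it was 0.0168, below the 0.0294 of genes with a peak in 9 of 9 and close to the 0.0160 of all genes. In the first kb, Eef1a1 (0.139) and Hspa8 (0.129) were the most skewed and Hsp90ab1 (0.00935) and Actg1 (0.0122) the least. Tubb5 had the lowest GC content in the first kb (49.4%) and the lowest coverage of the first part of its transcript (83.4% ± 11.96, SD, n = 9). Tuba1a, the next lowest in GC content (52.3%), was covered over 100.0% of that part in each library. Whether GC content and coverage go together was not tested. All of these are descriptions of 10 sequences.

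The promoters of Actg1 and Eef2 lay under a peak in 9 of 9 untreated libraries and that of Hsp90ab1 in 6 of 9, and they are shown for the last 120 bases before the main start in mm9, with motif matches in capitals. The motifs searched on both strands were the TATA box (TATAAA), the CCAAT box (CCAAT), the GC box (GGGCGG), the heat shock element core (GAANNTTC) and the CArG box bound by serum response factor. Adjoining or overlapping matches run together.
Actg1, chr11:120209857-120209976 (minus strand), GC, CCAAT and CArG boxes: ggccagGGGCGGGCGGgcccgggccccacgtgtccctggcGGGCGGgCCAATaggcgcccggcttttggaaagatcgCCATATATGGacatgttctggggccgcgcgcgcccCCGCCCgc
Eef2, chr10:80639256-80639375 (plus strand), TATA box: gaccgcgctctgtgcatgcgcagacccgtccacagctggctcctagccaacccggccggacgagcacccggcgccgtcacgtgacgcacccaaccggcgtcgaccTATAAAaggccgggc
Hsp90ab1, chr17:45710221-45710340 (minus strand), GC boxes: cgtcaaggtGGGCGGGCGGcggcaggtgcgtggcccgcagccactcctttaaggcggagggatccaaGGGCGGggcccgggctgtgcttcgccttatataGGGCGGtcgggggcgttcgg
In the 250 bases before the start, the CArG box of Actg1 was a motif found at 1.33% of all protein-coding genes. The CCAAT box was found at 7 of 10 (34.8% of all) and the GC box at 6 of 10 (41.1%). The TATA box was found at 1 of 10 (12.3%) and the heat shock element core at 0 of 10 (6.35%). Among genes with a peak in 9 of 9 libraries, the CCAAT box was found at 34.5% and the GC box at 62.1%. The TATA box was found at 5.39% of them, the heat shock element core at 4.74% and the CArG box at 1.06%. The GC box was thus no more frequent at the 10 genes than at genes with a peak in 9 of 9 libraries. A match is a match of letters only.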

How the data were processed

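DNA pulled down with S9.6 was sequenced in 12 libraries of N2a cells (9 untreated, 3 RNase H-digested). The 1 input library was not analysed here. Per the study's methods, the authors aligned reads to mm9 with Bowtie2 2.4.4 and called peaks in each library against input with MACS2 2.2.6. The deposited lists give a display score (not used), the fold enrichment as a linear ratio, and the −log10 p-value and −log10 q-value of each peak. The authors tested read counts with DESeq2, which peak lists do not allow, and covered bases were tested instead. A list shows only what passed the caller, so changes within a fully covered gene do not appear as covered bases. Biological triplicates came from separate plates. PCR duplicates are not marked in the lists. Fragment numbers carry counting error as well as differences between libraries, and these were not told apart.

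The 10 genes and all lists were chosen with earlier results of these data known. All 10 genes are named, and lists name up to 6 genes, family members first and then by coverage. Tubb1, Tubb4, Hprt and B2m were named after their values were seen. Peaks were assigned to GENCODE vM1 genes extended by 1 kb. The main transcript was the CCDS transcript with the longest coding sequence. Whole fragments were recovered from fold and −log10 p (99.5 to 99.97% of peaks within 0.002). Analyses ran in Python 3.11.15, numpy 2.4.6, scipy 1.17.1, pysam 0.24.0 and matplotlib 3.10.9, with exact permutation tests (64 assignments for RNase H, 280 splits for groups) and Benjamini-Hochberg adjustment over all genes tested. The tests were checked on simulated covered bases, where recovery was partial. An unadjusted p below 0.05 was found at 38.5% of genes given a 2-fold change in 1 group and at 16.5% at 1.25-fold. In the RNase H test it was found at 84.0% of genes that lost all covered bases and at 46.0% of those that lost 50%. Alternatives were a −log10 q of at least 5, equal peak numbers, other windows, an overlap of 500 bases, joining of peaks, ranking by −log10 p, groups from the peak names, leaving out each library and a replicate block. A promoter sequence and a gene of the lists are not reported here.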

Additional observations from a re-analysis of the deposited data

How the results depend on the processing

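All 10 genes kept a peak in every untreated library under the stricter q (−log10 q of at least 5), equal peak numbers, windows with no or 5 kb extension, an overlap of 500 bases, joined peaks and each library left out. Of all protein-coding genes 18.4 to 30.1% did so. With all libraries kept, RNase H loss was called at 10 of 10 under those settings, and at 33.5 to 40.8% of all genes tested. It was called at 0 to 10 with 1 untreated library left out, and at 0.0 to 43.4% of all genes tested. There 64 assignments become fewer and the smallest possible p is 0.0208. No gene of the 10 passed the adjusted tests across groups under any setting run (0 to 0 with 1 library left out). At unadjusted p below 0.05 the number of genes in covered bases was 0 to 1 with 1 library left out (1.81 to 8.3% of all genes). It was 0 without extension (2.8%) or with joined peaks (3.12%), and 2 with an overlap of 500 bases (Tubb5 and Tuba1b, with 2.83% of all genes). In fold percentile the number was 0 to 4 with 1 library left out (3.87 to 10.2% of all genes). The 4 were Actb, Actg1, Gapdh and Eef2 without siDDX1 replicate 1 (10.2% of all genes, against 5.05%). The number was 0 when peaks were ranked by −log10 p (4.88%). With fragments over the genome background, an alternative chosen after seeing the data, it was 2 (Actb and Gapdh, with 10.6% of all genes). Joining peaks up to 1000 bases apart raised the median share covered to 100.0% in siScramble, siDDX1 and siEXOSC3 by filling the gaps between peaks. With groups from the peak names, the median was 86.5% in siScramble, 87.7% in siDDX1 and 85.7% in siEXOSC3, so the order of the groups turned. With 1 library left out the median was 86.9 to 89.2% in siScramble, 82.4 to 89.4% in siDDX1 and 86.2 to 86.8% in siEXOSC3, and the share of edges on cuts was 50.3 to 52.3%. A tolerance of 5 bases, also chosen after seeing the data, left that share at 51.2%.

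The deviations from group means correlated above 0.1 in 3 of 9 pairs of libraries with the same replicate number (−0.809 to 0.839). They did so in 10 of 18 pairs with different numbers (−0.869 to 0.838). Because the deviations of each group sum to 0, these values do not settle whether replicate numbers pair the libraries. With the replicate block, 0 genes of the 10 passed, adjusted or not, in covered bases or fold percentile. Of all genes 0.511% and 2.17% had an unadjusted p below 0.05 there. No paired value exists for RNase H, since each group has 1 such library. Depth limits the RNase H libraries to summits of 8 or 9 fragments and more.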
